A study of Mus musculus with 16 samples.

Results

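The miR-199 and miR-214 miRNAs were followed in sciatic nerves of mice that lack Dicer in Schwann cells. Members were taken by name, with all of their probes, by a rule that uses no threshold on a measured value but was set with earlier results of these data known. Of the 6 names looked for, 5 were on the array (mmu-miR-199a-5p, mmu-miR-199a-3p, mmu-miR-199b*, mmu-miR-214 and mmu-miR-214*), with 12 of the 1857 probes and 5 of the 650 names in all. mmu-miR-199b was not among the names on the array. The scanner software detected 4 of the 5 on all 16 arrays, and these 4, with 8 probes, were among the 281 miRNAs that counted as expressed, which asks for detection on a share of 0.5 or more of the arrays in 1 group or more.

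All animals came from a cross of Dhh-Cre+ Dicer wt/fl with Dicer fl/fl mice and carried the tgDhh-Cre transgene. The Dicer fl/fl mice were of the strain Dicer1tm1Bdh/J, and the Dhh-Cre mice crossed to them came from a separate source. The mutants were Dicer fl/fl Dhh-Cre+ and the controls Dicer wt/fl Dhh-Cre+, so that control Schwann cells also carried 1 floxed Dicer allele together with the recombinase. Nerves were taken at embryonic day 17 (E17), before myelination, and at postnatal day 4 (P4), when it has begun in controls, with 4 arrays for each genotype and age, each from 1 animal according to the methods of the study. The comparison asks how the loss of Dicer from Schwann cells changed the miRNAs of the nerve before and after this step. The desert hedgehog (Dhh) promoter drives Cre in the Schwann cell lineage, and which other cells of the nerve lost or kept Dicer was not measured by these arrays. A nerve also holds fibroblasts, perineurial and endothelial cells, pericytes and axons, and in such bulk samples a change in the number of cells of a type and a change in the amount of a miRNA per cell cannot be told apart.

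Dicer cuts the hairpin of a precursor miRNA and releases a duplex, of which one or both arms (5p and 3p) persist as the mature miRNA. The bases next to its 5′ end, called the seed, pair with target mRNAs. miR-199a and miR-214 are known as miRNAs of connective tissue. Hairpins of both lie in Dnm3os, a non-coding RNA that is transcribed from the strand opposite to the dynamin gene Dnm3 and is needed for normal growth of the skeleton in mice. On the array, miR-199b* is the old name of the 5p arm of miR-199b, miR-214 that of the 3p arm and miR-214* that of the 5p arm of miR-214. The prefix mmu, for mouse, is left out below where a name is repeated.

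The mature sequences, shown because the seeds set which members could share targets and because one of them comes from several genes, were taken from RefSeq on GRCm38.p6 for 5 of the 6 names, with bases 2 to 8 (the seed) in capitals:
miR-199a-5p: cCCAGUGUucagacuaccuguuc
miR-199a-3p: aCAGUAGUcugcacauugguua
miR-199b (miR-199b-3p): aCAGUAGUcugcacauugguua
miR-214 (miR-214-3p): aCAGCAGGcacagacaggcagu
miR-214* (miR-214-5p): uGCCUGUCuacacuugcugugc

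miR-199b-3p differed from miR-199a-3p at 0 bases, so that the signal read as miR-199a-3p can come from 3 genes. These were Mir199a-2 inside Dnm3os and Dnm3 (mature arm at chr1:162217883-162217904, plus strand), Mir199a-1 inside the dynamin gene Dnm2 (chr9:21496498-21496519, minus strand) and Mir199b inside Dnm1 (chr2:32318524-32318545, plus strand). miR-199a-5p came from Mir199a-2 (chr1:162217844-162217866) and Mir199a-1 (chr9:21496537-21496559). Mir214, whose 3p arm lies at chr1:162223438-162223459 on the plus strand, was 5444 bases from Mir199a-2 and also inside Dnm3os. The seeds of miR-199a-3p and miR-214 shared 5 of 7 bases and differed by U5C and U8G, counted from the 5′ end with the base of miR-199a-3p first. No other pair of different seeds among the printed arms shared more than 3 bases at the same positions. The array can therefore not say from which gene the miR-199a signal came. The source used held no sequence for miR-199b*, so its seed was not compared with the others. Whether its probes also bind miR-199a-5p, or the reverse, was not tested.

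Signals of the brightest probe of each member are given first, as log2 of the median spot intensity after quantile normalization across the arrays. In this normalization all arrays are given the same distribution of signals, so that a value states the position of a miRNA relative to the others on its array.

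mmu-miR-199a-5p, the arm of the miR-199a hairpin kept from its 5′ side, had normalized log2 signals of 9.07, 9.55, 9.76 and 9.84 in controls at E17 and of 10.09, 10.31, 10.28 and 10.30 in mutants at E17. At P4 the signals were 9.02, 9.16, 8.73 and 9.20 in controls and 10.20, 10.48, 9.55 and 10.43 in mutants. At both ages, each mutant array lay above each control array. The group means in descending order were 10.24 ± 0.10 in E17 mutants, 10.16 ± 0.43 in P4 mutants, 9.56 ± 0.34 in E17 controls and 9.03 ± 0.21 in P4 controls (SD, n = 4 each), and the 2 mutant groups overlapped.

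mmu-miR-199a-3p, the other arm of that hairpin, had normalized log2 signals of 10.94, 11.61, 11.68 and 11.45 in controls at E17 and of 11.96, 11.77, 11.72 and 12.35 in mutants at E17. At P4 its signals were 10.86, 10.96, 10.42 and 10.92 in controls and 11.68, 11.90, 10.79 and 11.92 in mutants. The genotypes did not overlap at E17, whereas at P4 replicate 3 of the mutants lay within the range of the controls. On its second probe, where that replicate had 10.14 and the controls reached 9.74, the genotypes did not overlap at P4 either. Means of the brightest probe ran from 11.95 ± 0.28 in E17 mutants over 11.57 ± 0.53 in P4 mutants and 11.42 ± 0.33 in E17 controls down to 10.79 ± 0.25 in P4 controls (SD, n = 4 each).

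mmu-miR-199b*, the 5p arm of the third miR-199 gene, had normalized log2 signals of 9.81, 10.37, 10.45 and 10.19 in controls at E17 and of 10.88, 10.69, 10.66 and 10.88 in mutants at E17. The P4 signals were 9.77, 9.90, 9.41 and 9.96 in controls and 11.20, 11.41, 10.35 and 11.33 in mutants. Again no mutant array reached down to a control array of its age. Its highest mean was that of the P4 mutants (11.07 ± 0.49), followed by 10.78 ± 0.12 in E17 mutants, 10.20 ± 0.29 in E17 controls and 9.76 ± 0.25 in P4 controls (SD, n = 4 each).

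mmu-miR-214, the 3p arm of its hairpin, had normalized log2 signals of 8.94, 9.92, 10.25 and 9.86 in controls at E17 and of 10.35, 10.19, 10.38 and 10.17 in mutants at E17. Its P4 signals were 8.77, 8.56, 8.38 and 8.67 in controls and 9.84, 9.92, 9.20 and 9.77 in mutants. The genotypes were separate at P4 and overlapped at E17, where replicate 3 of the controls stood within the mutants and replicate 1 far below the other controls. Both P4 groups lay below the E17 group of the same genotype without overlap. The means were 10.27 ± 0.11 in E17 mutants, 9.74 ± 0.56 in E17 controls, 9.68 ± 0.33 in P4 mutants and 8.59 ± 0.17 in P4 controls (SD, n = 4 each), and E17 controls and P4 mutants overlapped.

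mmu-miR-214*, the 5p arm of the miR-214 hairpin, was detected on 0 of the 16 arrays. Its 4 probes had normalized log2 signals between 5.78 and 6.19 over all arrays, with at most 20% of their spots well above background on any array, so that no difference between groups could be measured for it.

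**Figure D1:**
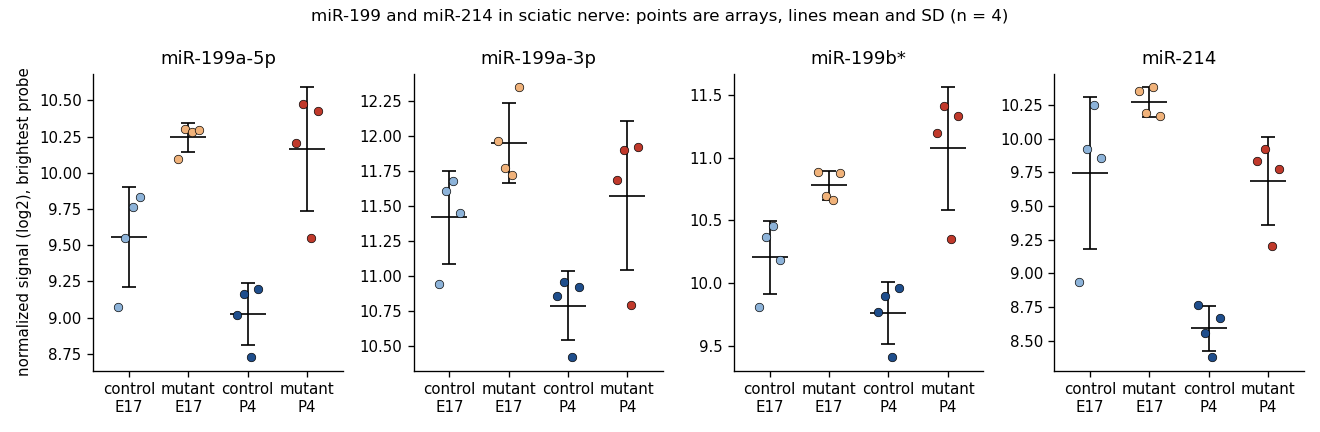
Normalized log2 signal of the brightest probe of each detected member (vertical axis, scaled per panel and not from 0) in the 4 groups, with a point for each array and lines for mean and SD. P4 mutant points lie above the P4 controls in each panel apart from replicate 3 of miR-199a-3p, and the lowest point of the P4 mutants is that replicate in each panel.

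At P4, all 4 detected members were called higher in the mutants. A call needed a limma adjusted p no higher than 0.05 together with a log2 difference of 0.5 or more in size, on 1 probe or more, and no probe called the other way. Among all 281 expressed miRNAs, 29 (10.3%) were called higher. miR-199b* rose by 1.31 on the log2 scale, a 2.48-fold difference of normalized signals (standard error 0.209, adjusted p = 1.62e-04 by limma). Next came miR-199a-5p, which rose by 1.14 or 2.20-fold (standard error 0.197, limma adjusted p = 3.00e-04), and miR-214 by 1.09 or 2.13-fold (standard error 0.226, limma adjusted p = 0.00118). For miR-199a-3p the brightest probe gave 0.78 or 1.72-fold (standard error 0.242, limma adjusted p = 0.0175) and the second probe 1.12 (limma adjusted p = 5.16e-05). Ranked by the difference of their brightest probe among the 281, miR-199b*, miR-199a-5p, miR-214 and miR-199a-3p stood at places 2, 3, 5 and 17 from the top. All 8 probes were called higher, beside 45 (6.61%) of all 681 probes, with differences between 0.59 and 1.31, and on 7 of the 8 the genotypes did not overlap, against 130 (19.1%) of all 681 probes with every mutant array above every control. The median over the 4 members was 1.12, beside 0.06 over all expressed miRNAs.

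These differences state positions among the miRNAs of an array. Without normalization between arrays the P4 differences of the 4 members were between 0.15 and 0.35, 0 were called, and the median of all expressed probes was -0.09. Relative to that median the members were higher by 0.25 (miR-199a-3p) to 0.44 (miR-199a-5p), and the same holds for any scaling by 1 factor per array. Under quantile normalization, where the median of all probes was 0.02, they were higher by 0.76 to 1.29. In background-subtracted gene signals, described below, the members differed by 0.16 to 0.38 at P4. The median over the 167 miRNAs detected on every array was -0.49 there.

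Replicate 3 of the P4 mutants was the lowest array of its group on all 8 probes, as was replicate 3 of the P4 controls. Without the mutant array the differences were 1.34 for miR-199a-5p, 1.04 for miR-199a-3p, 1.55 for miR-199b* and 1.25 for miR-214, all called. The brightest probe of miR-199a-3p lost its call in 3 of the 16 limma fits that left out an array each (differences from 0.66 to 1.04, adjusted p up to 0.0593).

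At E17, before any myelin has formed, the same 4 members were called higher in the mutants, and 10 (3.56%) of the 281 miRNAs were. The calls came from 4 of the 8 probes, 1 for each member, beside 10 (1.47%) of the 681 probes. miR-199a-5p rose by 0.69 on its brightest probe, which is 1.61-fold (standard error 0.197, limma adjusted p = 0.0402). miR-199a-3p, miR-199b* and miR-214 were called on their second probes, with differences of 0.65, 0.57 and 0.52 (limma adjusted p = 0.0195, 0.0381 and 0.0352), while their brightest probes gave 0.53, 0.57 and 0.53 with adjusted p between 0.0932 and 0.176. All 8 probes had differences above 0, between 0.37 and 0.69, and on 6 of them the genotypes did not overlap, against 58 (8.52%) of the 681 probes. The members stood at places 3, 6, 9 and 10 of 281 by the difference of the brightest probe. Their median was 0.55, beside -0.0043 over all expressed miRNAs.

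The E17 calls depended on which arrays were in the fit. Replicate 1 of the E17 controls was the lowest array of its group on all 8 probes, and when it was left out 0 of the 4 members were called, with differences of 0.26 for miR-214, 0.37 for miR-199a-3p, 0.44 for miR-199b* and 0.53 for miR-199a-5p on the brightest probes, and leaving out replicate 2 of the controls or replicate 1, 2 or 3 of the mutants left 1. Without replicate 4 of the E17 mutants, or replicate 1 of the P4 controls through the shared estimate of spread, 2 were called. Without normalization between arrays 0 were called at E17 and the differences lay between 0.30 and 0.47, which is 0.05 (miR-199b*) to 0.21 (miR-199a-5p) above the median of all expressed probes (0.25). These spot signals still hold the background of the array. In background-subtracted gene signals, described below, the members differed by 0.32 to 0.49 at E17. The median over the 167 miRNAs detected on every array was -0.10 there.

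By quantile-normalized signals, the increase at P4 exceeded that at E17 on all 8 probes, but 0 of the 4 members were called by limma for a difference between the 2 mutant effects, with 2 of the 8 probes at an unadjusted p under 0.05. That difference was 0.74 for miR-199b* (limma adjusted p = 0.115), 0.56 for miR-214 (adjusted p = 0.28), 0.45 for miR-199a-5p (adjusted p = 0.333) and 0.25 for miR-199a-3p (adjusted p = 0.686), with 95% intervals from 0.10 to 1.37, -0.12 to 1.25, -0.15 to 1.05 and -0.48 to 0.99. Of all expressed miRNAs, 8 (2.85%) were called for a higher effect at P4. This comparison depended on the scaling. Without normalization between arrays the difference was -0.12 for miR-199a-5p, -0.21 for miR-199a-3p, -0.0097 for miR-214 and 0.018 for miR-199b*, while 4 members were called with scaling to the 75th percentile or to the summed miRNA signal and with array weights. Without replicate 3 of the P4 mutants, 3 members were called, with 0.98 for miR-199b* and 0.65 for miR-199a-5p on their brightest probes. The miRNAs called higher in mutants at P4 and at E17 numbered 8 (2.85% of the 281), namely the 4 members and miR-127, miR-335-5p, miR-379 and miR-720, which were named for being in this set after its size was seen.

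**Figure D2:**
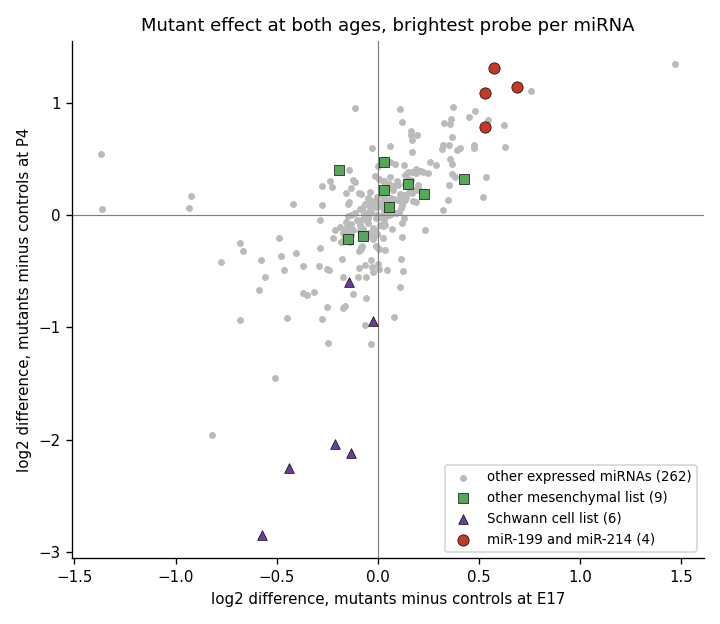
Log2 difference between mutants and controls at E17 (horizontal axis) and at P4 (vertical axis) for the brightest probe of each of the 281 expressed miRNAs. The 4 members stand at the upper right, between 0.53 and 0.69 at E17 and between 0.78 and 1.31 at P4. The 9 other mesenchymal miRNAs lie between -0.19 and 0.42 at E17 and between -0.21 and 0.47 at P4. The 6 Schwann cell miRNAs lie between -0.57 and -0.03 at E17 and between -2.85 and -0.60 at P4, where other expressed miRNAs also lie within that range.

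Between E17 and P4, the normalized signals of 3 of the 4 members fell in controls, where 34 (12.1%) of the 281 expressed miRNAs were called lower. miR-214 fell by 1.15 on the log2 scale, to 0.45 of its E17 signal (standard error 0.226, limma adjusted p = 0.00113), and its second probe fell by 0.63 (adjusted p = 0.00317). miR-199a-3p was called on its second probe, which fell by 0.66 (limma adjusted p = 0.00383), with -0.63 on the brightest (adjusted p = 0.052). The call of miR-199a-5p, with -0.53 (limma adjusted p = 0.0454), was lost in 11 of the 16 fits without an array and its second probe gave -0.03. miR-199b* had -0.44 (limma adjusted p = 0.109) and was not called. The median over the members was -0.58, beside -0.02 over all expressed miRNAs. In mutants 0 members were called with age by limma (3 of the 8 probes at an unadjusted p under 0.05, and 1 member by the methods' t-test without adjustment), where 9 (3.2%) of the miRNAs were called higher and 21 (7.47%) lower. There the differences were -0.59 for miR-214 (limma adjusted p = 0.0676), -0.38 for miR-199a-3p, -0.08 for miR-199a-5p and 0.29 for miR-199b*. Without replicate 3 of the P4 mutants the last 3 were -0.12, 0.12 and 0.54, and miR-199b* was then called higher (limma adjusted p = 0.0163).

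The direction with age depended on the scale. The 2 ages were hybridized on separate slides, each with both genotypes, and age and slide cannot be told apart. Without normalization, the same probes rose with age in controls, by 0.88 for miR-199a-5p, 1.05 for miR-199a-3p and 1.17 for miR-199b* (called), with 0.24 for miR-214 (not called), where the median of all expressed probes rose by 0.42. Relative to that median, miR-214 was lower by 0.18 and the others were higher by 0.46, 0.63 and 0.75. In mutants, 3 members were called higher with age without normalization, with differences of 0.76 for miR-199a-5p, 0.85 for miR-199a-3p, 1.19 for miR-199b* and 0.23 for miR-214. In background-subtracted gene signals, described next, the members rose in controls by 0.90, 1.03, 1.18 and 0.22 in the same order, beside a median of 1.13 over the 167 miRNAs detected on every array, which put them at places 104, 91, 75 and 146. By gene signals miR-199a-5p and miR-199a-3p thus rose less than the median miRNA. Their place above the median held only for the spot signals, from which no background was subtracted.

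**Figure D3:**
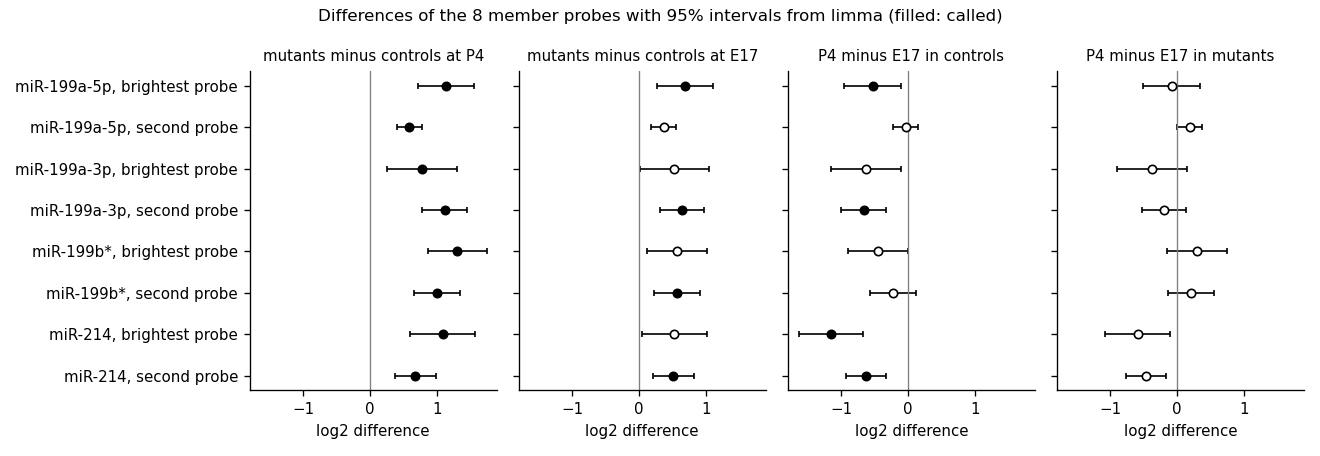
Log2 differences of the brightest and second probe of each detected member (rows) for 4 comparisons (panels), with 95% intervals from limma and filled points for called probes. All 8 points are filled for mutants against controls at P4 and 4 at E17, 4 are filled below 0 for age in controls, and none is filled for age in mutants.

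The background-subtracted gene signal, in which the scanner software sums the signal of a miRNA over its probes, was compared because it carries no scaling between arrays. miR-199a-3p had a mean gene signal of 3349 ± 520 in controls and 3806 ± 994 in mutants at P4 (SD, n = 4). For miR-199b* the gene signals were 1533 ± 255 and 1984 ± 615, for miR-199a-5p 623 ± 115 and 830 ± 254, and for miR-214 503 ± 50.1 and 661 ± 164. The genotypes overlapped for each member. By the geometric means, P4 mutants had 130% of the control signal for miR-199a-5p, 129% for miR-214, 126% for miR-199b* and 112% for miR-199a-3p, with exact two-sided permutation p of 0.2, 0.114, 0.229 and 0.543 over the 70 assignments of 8 arrays to 2 groups, and adjusted p between 0.19 and 0.543 over 20 tests. At E17 the mutants had between 125% and 141% of the control signal, and again the genotypes overlapped (exact permutation p between 0.114 and 0.2).

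The summed signal of all miRNAs behaved otherwise. It was 122860 to 154076 on the P4 control arrays and 56841 to 83630 on the P4 mutant arrays, with 51.3% of the control signal left in the mutants and no overlap (exact permutation p = 0.0286, the smallest the design allows, adjusted p = 0.0635 over 20 tests). Of the 167 miRNAs detected on all 16 arrays with a signal above 0, 50 (29.9%) had a higher mean in P4 mutants, and the median miRNA had 71.4% of its control signal. By this difference, miR-199a-5p, miR-214, miR-199b* and miR-199a-3p took places 12, 13, 15 and 26 from the top of the 167. At E17, where the summed signal in mutants was 88.7% of that in controls with overlapping arrays (exact permutation p = 0.4), they took places 7, 14, 19 and 12.

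As a share of the summed signal, the 4 members together made up 4.46% ± 0.315 of it in controls and 10.3% ± 1.14 in mutants at P4 (SD, n = 4), and 6.41% ± 1.33 and 9.25% ± 0.460 at E17. At P4, the shares ranged from 4.17% to 4.78% in controls and from 9.33% to 11.9% in mutants. miR-199a-3p alone rose from 2.48% ± 0.160 to 5.42% ± 0.536 of the signal at P4, and miR-199b* from 1.14% ± 0.128 to 2.81% ± 0.430. For miR-199a-5p the shares were 0.462% ± 0.0491 and 1.17% ± 0.169, and for miR-214 0.374% ± 0.0231 and 0.941% ± 0.0848. Each mutant array exceeded each control array for each member at P4 (exact permutation p = 0.0286, adjusted p = 0.0457 over 16 tests), as it did at E17 except for miR-214 (exact permutation p = 0.0571). The shares of 69 (41.3%) of the 167 miRNAs were separate in this direction at P4 and those of 28 (16.8%) at E17, and the median log2 difference of the share over the 167 was 0.48 at P4. Replicate 3 of the P4 mutants, with 0.984% for miR-199a-5p and 5.17% for miR-199a-3p, stood above all P4 controls on this scale.

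**Figure D4:**
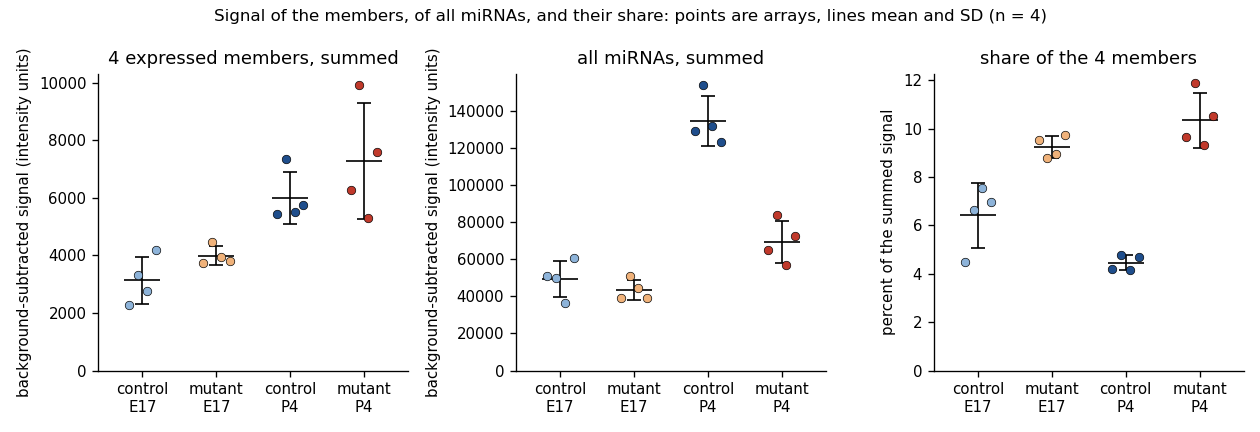
Background-subtracted signal summed over the 4 detected members (left, intensity units), over all miRNAs (middle, intensity units) and the members' share of it (right, percent), with a point for each array, lines for mean and SD and axes from 0. The members' signal overlaps between genotypes at P4, the sum of all miRNAs is lower in P4 mutants, and the share is 4.17% to 4.78% in P4 controls and 9.33% to 11.9% in P4 mutants.

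Differences between members within an array do not depend on a scaling of the whole array by a factor, but quantile normalization is no such scaling and can change them. The only hairpin with both arms detected under a name of its own was that of miR-199a. The signal read as miR-199a-3p can also come from Mir199b, so that the arms of a single hairpin are not compared alone. The log2 difference of miR-199a-5p minus miR-199a-3p was -1.77 ± 0.07 in controls and -1.41 ± 0.12 in mutants at P4 (SD, n = 4), a shift of 0.36 in favour of the 5p arm without overlap (exact permutation p = 0.0286, adjusted p = 0.0623 over 24 tests). Without normalization the same probes gave a shift of 0.19, with overlapping arrays (exact permutation p = 0.0857). With the background-subtracted gene signal the shift was 0.22, and the arrays overlapped (exact permutation p = 0.0857). The shift also depended on the probes. On the second probes the mutant effect at P4 was 0.59 for miR-199a-5p and 1.12 for miR-199a-3p, the reverse order of the brightest. At E17 the shift was 0.16 (exact permutation p = 0.314). The arms of miR-199b and miR-214 could not be compared, since miR-199b was not on the array under its own name and miR-214* was not detected.

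miR-214 moved apart from the miR-199 members with age in controls. There, the difference of miR-199b* minus miR-214 was 0.71 higher at P4 than at E17 by normalized signals and 0.95 higher by gene signals. For miR-199a-5p minus miR-214 it was 0.62 and 0.68, and for miR-199a-3p minus miR-214 0.52 and 0.81. In each of these 6 comparisons the arrays of the 2 ages did not overlap (exact permutation p = 0.0286 each, adjusted p = 0.0623 by normalized and 0.0762 by gene signals over 24 tests each). In mutants the gene signals shifted by 0.97, 0.57 and 0.60 without overlap, and the normalized signals by 0.88 and 0.51 without overlap for miR-199b* and miR-199a-5p, but by 0.21 with overlapping arrays for miR-199a-3p (exact permutation p = 0.371). Between mutants and controls at P4, the arrays overlapped for each of these pairs. The gene signals differed by -0.03 for miR-199b* minus miR-214, 0.01 for miR-199a-5p minus miR-214 and -0.20 for miR-199a-3p minus miR-214 (exact permutation p = 0.743, 0.971 and 0.0857), and the normalized signals by 0.22, 0.05 and -0.31 (exact permutation p = 0.114, 0.629 and 0.0857).

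**Figure D5:**
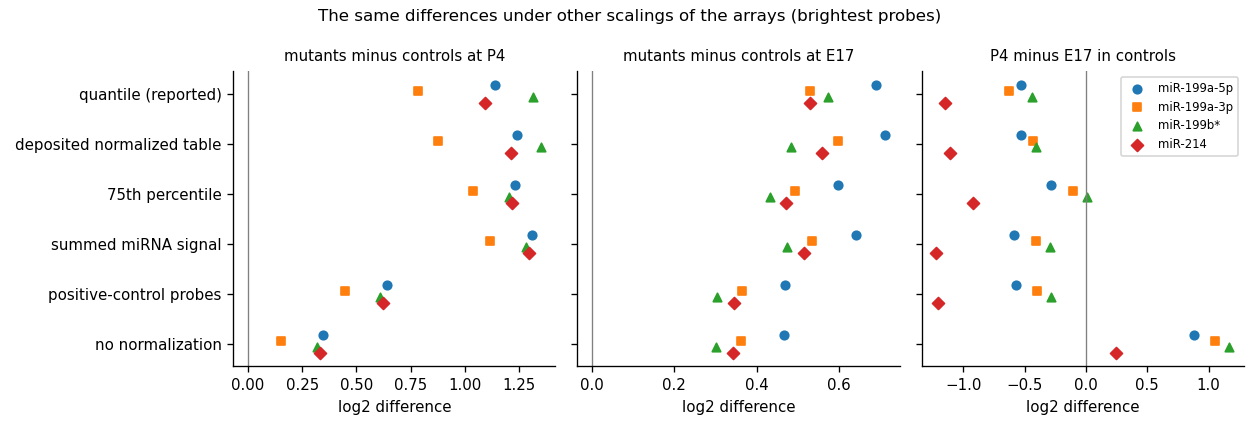
Log2 differences of the brightest probe of each detected member (horizontal axis) for mutants against controls at P4 and at E17 and for age in controls (panels), under 6 ways of scaling the arrays (rows). All points for the mutant effects lie above 0, at P4 between 0.15 and 1.35, while for age in controls the points turn from below 0 to above 0 without normalization.

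Lists of miRNAs known from other cell types were set beside the members. Of 11 other mesenchymal miRNAs on the array, 9 were expressed and 0 were called by limma between the genotypes at either age, with 6 at P4 and 1 at E17 at an unadjusted p under 0.05 and medians of 0.23 and 0.03. Among them miR-10b, a Hox cluster miRNA, had a difference of 0.47 at P4 (limma adjusted p = 0.00563), and miR-29a, which targets collagen mRNAs, 0.40 (adjusted p = 0.00959), both under the limit of 0.5. miR-143, a smooth muscle miRNA, had 0.08 (limma adjusted p = 0.635). miR-29c and miR-27a went the other way, with -0.18 (limma adjusted p = 0.0164) and -0.21 (adjusted p = 0.189), while the rest of the 9 were above 0. The smooth muscle miRNAs miR-145 and miR-145* were detected on 0 arrays. With age in controls, where 23 (8.19%) of all expressed miRNAs were called higher, 2 of the 9 rose and 0 fell by limma (8 at an unadjusted p under 0.05).

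The Schwann cell list, which overlaps with the miRNAs that the study selected on these samples and is therefore no independent evidence, had 6 of 6 members called lower at P4 in mutants, with a median difference of -2.08, beside 30 (10.7%) of all expressed miRNAs called lower. miR-338-3p, enriched in myelinating glia, differed by -2.85 (limma adjusted p = 9.29e-08), miR-34a by -2.26 (adjusted p = 9.85e-10), miR-146b by -2.12 (adjusted p = 6.23e-12) and miR-204 by -2.04 (adjusted p = 5.28e-07). At E17, 0 of 6 were called by limma (4 at an unadjusted p under 0.05). At P4 the background-subtracted signal summed over this list was 5.22% to 6.43% of that of all miRNAs in controls and 0.641% to 0.878% in mutants. In the P4 mutant replicate 3, the normalized log2 signals of miR-338-3p and miR-204 were 7.77 and 7.73, the lowest of the 16 arrays for both, and the part of this in the low member signals of that array was not tested.

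miRNAs of other cells in the nerve moved as follows. miR-126-3p of endothelial cells rose by 0.60 at P4 (1 of 2, limma adjusted p = 0.0123), and the list's summed share was 0.908% to 1.55% in P4 controls and 1.55% to 1.81% in P4 mutants. miR-223 of myeloid cells rose by 0.81 at P4 (1 of 3 expressed leukocyte miRNAs, limma adjusted p = 6.48e-05), and miR-142-3p by 0.54 at E17 (1 of 3, adjusted p = 0.00436), while miR-142-5p and miR-150 were detected on 0 arrays. The leukocyte share was 0.173% to 0.222% in P4 controls and 0.430% to 0.725% in P4 mutants. Of 3 erythroid miRNAs, miR-451 was called higher at P4, with 1.35 (limma adjusted p = 0.0306), and miR-486 at E17, with 0.52 (adjusted p = 0.0296). miR-451 was not called at E17, with 1.47 (limma adjusted p = 0.0624). The erythroid share was 1.74% to 5.44% in E17 controls and 5.38% to 12.2% in E17 mutants. At P4 it was 0.167% to 1.13% in controls and 0.542% to 1.95% in mutants, with overlap. Of the 4 muscle miRNAs, 0 were called between genotypes by limma (0 at an unadjusted p under 0.05), although their median at P4 was 0.70 and their share 0.201% to 0.372% in P4 controls and 0.236% to 1.52% in P4 mutants. Of 4 neuron miRNAs, miR-9 was called lower at P4, with -0.68 (limma adjusted p = 6.03e-04), while miR-124 had 0.31 and miR-132 0.28 (limma adjusted p = 0.00142 and 3.14e-04, both under the limit of 0.5) and miR-128 0.10. The median of this list was 0.19, and its share was 0.123% to 0.138% in P4 controls and 0.142% to 0.181% in P4 mutants. With age in controls, 5 of 6 Schwann cell miRNAs rose, and 2 erythroid, 1 muscle and 1 neuron miRNA fell. The part of these cell types in the signals of the members was not tested.

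The profiles most like those of the members over the 16 arrays were compared by the root mean square distance between log2 signals of the brightest probes, each centred on its own mean. Among the miRNAs that are not members, closest to miR-199a-5p were miR-300 (0.175), miR-329 (0.206) and miR-127 (0.218), and closest to miR-199a-3p miR-300 (0.178), miR-196a (0.249) and miR-410 (0.254). The closest non-members to miR-199b* were miR-434-3p (0.182), miR-299* (0.204) and miR-154 (0.223), and those to miR-214 were miR-300 (0.317), miR-495 (0.336) and miR-431 (0.336). miR-214 was thus farther from its nearest non-member profile than the other members were. Between members the distance was 0.188 for miR-199a-5p and miR-199b*, 0.236 for miR-199a-5p and miR-199a-3p, 0.301 for miR-199a-3p and miR-199b*, 0.310 to 0.339 for miR-214 and either miR-199a arm, and 0.445 for miR-214 and miR-199b*, the farthest pair. All these points share the arrays and their normalization.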

How the data were processed

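Total RNA of sciatic nerves was labelled with Cy3 and hybridized to 1-colour Agilent mouse miRNA arrays, 16 in all, and groups followed the labels. The authors deposited the scanner output (Feature Extraction 10.5.1.1 of Agilent), which holds an intensity for each spot and the background-subtracted gene signal, not normalized between arrays, and a table of normalized intensities, which served as an alternative. The log2 of the median spot intensity was quantile normalized over the 13000 spots that are not controls and averaged per probe, leaving out outlier spots, after the methods of the study. Means of the 4 groups were estimated in 1 fit of all 16 arrays (limma 3.58.1, R 4.3.3), and p-values adjusted by the Benjamini-Hochberg method over 681 probes. The methods' t-test, run on the same values, was an alternative to limma. Gene signals, shares of their sum and within-array differences were compared by permuting the arrays between the groups (exact, two-sided), with gene signals, shares and pairs of members chosen after seeing the data. Because no mean spot signal was in the files, normexp used the median spot signal. All members and probes were named, and of the lists the called members, at most 4 a list by size of change. Also named were miR-143, miR-10b, miR-29a, miR-29c, miR-27a, the other neuron miRNAs and those mentioned for their detection. Members and lists were chosen with earlier results of these data known. Steps were tested on simulated data. Precision is limited by the number of arrays. Alternatives covered scaling, background, probe filter, limits, test, probes, array weights, a replicate block and leaving out each array.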

Additional observations from a re-analysis of the deposited data

Results flagged for a closer look

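In 2 of the 32 combinations of a member probe and a group, the gap between an extreme array and its neighbour was larger than Dixon's 95% critical value for 4 arrays, relative to the range of the group, and chance gives about 1 in 20. On the brightest probe of miR-199a-5p, replicate 1 of the E17 mutants had a normalized log2 signal of 10.09, below the 10.28 to 10.31 of the other 3 arrays. On the second probe of miR-199a-3p, replicate 3 of the P4 mutants had 10.14, below the 10.84 to 10.88 of the others.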

How the results depend on the processing

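At P4, 4 members were called in 15 of 17 alternatives and in all 16 fits without an array (4 to 4), and 0 without normalization between arrays or with scaling to 20 positive-control probes (differences from 0.45 to 0.64), while all differences stayed above 0. At E17 (4 called), 0 were called without normalization, with positive-control scaling, with background-subtracted signals and at a log2 limit of 1, 1 with all probes, and 2 with normexp, the methods' t-test after Benjamini-Hochberg adjustment and the mean of the probes of a miRNA, with 0 to 4 when an array was left out. For age in controls (3 called lower), no normalization gave 3 called higher and a log2 limit of 1 gave 1, with 2 to 4 without an array. For age in mutants (0 called), the calls went both ways. They were 3 higher without normalization, 1 higher with the 75th percentile and 1 higher and 1 lower with the summed signal. Positive-control scaling gave 2 lower and background-subtracted signals 1 lower. The methods' t-test without adjustment, the groups of the contrast alone and the mean of probes called 1 each, with 0 to 1 without an array. For the difference between the mutant effects (0 called), 4 were called with the 75th percentile, the summed signal and array weights and 2 with the deposited table, with 0 to 3 without an array. The cause of these changes was not tested.

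Directions that turned were as follows. Without normalization, age in controls gave 0.88 for miR-199a-5p, 1.05 for miR-199a-3p, 1.17 for miR-199b* and 0.24 for miR-214, age in mutants 0.76, 0.85 and 0.23 for miR-199a-5p, miR-199a-3p and miR-214, and the difference between mutant effects -0.12, -0.21 and -0.0097 for the same 3. With the 75th percentile, miR-199b* gave 0.0056 for age in controls, and miR-199a-5p and miR-199a-3p 0.35 and 0.44 for age in mutants. With the summed signal these 2 gave 0.086 and 0.17. miR-199a-5p had 0.052 with array weights, 0.057 with the mean of probes and -0.18 to 0.12 without an array, for age in mutants. The arm difference with age in controls was -0.17 without normalization and -0.13 with gene signals. The scalings moved the median of all expressed probes at P4 to between -0.09 (none) and 0.87 (summed signal), from 0.02 under quantile normalization, and the members exceeded it by 0.25 to 0.44 at P4 and by 0.05 to 0.21 at E17 under no normalization and under each scaling by 1 factor per array. Those signals still hold the background. In background-subtracted gene signals the members differed by 0.16 to 0.38 at P4 and by 0.32 to 0.49 at E17, beside medians of -0.49 and -0.10.

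The methods of the study describe pairs of littermates, but no label ties an array to a litter. Same-numbered samples correlated in their deviations from the group means by -0.52 to 0.09 at E17, and at P4 by 0.17, -0.28, 0.46 and 0.16, so that not every pair deviated together and the replicate number was not used as a block in the reported values. Whether the numbers mark litters is not known. With the replicate block, 4 members were called at P4, 4 at E17 and 1 for the difference between the mutant effects.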
